A study of Rattus norvegicus with 9 samples.

Results

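The genes of the small ribosomal subunit proteins were examined in RNA from rat whole blood. They were taken as every row of the expression table whose gene name starts with Rps, Rpsa included and the S6 kinases (names starting with Rps6k, 8 rows) left out, which gave 41 of the 12854 rows. The 41 rows carry 36 names, because several names stand on more than 1 row, among them Rps29 and Rps4x on 2 and Rps20 on 3, and these rows are told apart below by their chromosome. Fresh whole blood of rats was either incubated for 15 min with DNAgel, a hydrogel of crosslinked salmon sperm DNA, or for 15 min with GS, a gelatin sponge used as a commercial hemostatic material, or was left without either as the Control. Each of the 3 groups holds 3 libraries. How long the Control blood stood is not stated, so time in the tube and material cannot be told apart wherever Control is compared. The rats named in the study's methods are male Sprague-Dawley rats 6 weeks old, and the methods do not say separately which rats gave the sequenced blood. Whether libraries of 1 group are from different animals is not stated either, so p-values describe the spread among these libraries only, and that spread may be technical.

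The small (40S) ribosomal subunit binds the mRNA, finds the start codon and decodes. Each of its proteins is present in 1 copy per ribosome and most are encoded by a single functional gene, around which mammalian genomes have gathered many intronless copies. Red cells lose their nucleus late in maturation, and young red cells (reticulocytes) keep ribosomes and mRNA for a time and go on making globin. Ribosomal protein mRNAs typically begin with a 5′ terminal oligopyrimidine (TOP) motif, a C followed by a run of C or T, through which growth signals set their translation.

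To show this motif, the bases around the annotated start of the members are given, from the RefSeq promoters of the rat assembly GRCr8. Of the 36 names, 26 matched a promoter by symbol. The motif was searched on the strand of the gene as a C at the start site followed by at least 4 bases that are each C or T. It stood exactly at the annotated start of 5 of the 26 (19.2%), against 3.11% of all 27457 promoters and 41.7% of the 36 large subunit (Rpl) genes with a promoter. These 5 are shown from 15 bases before the start, with the pyrimidine run in capitals from the start base on. In all 5 the base just before the start is also a C or T, left in lower case.
Rps14, chr18:56498245-56498274, plus strand: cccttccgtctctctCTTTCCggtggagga
Rps15, chr7:10068101-10068130, minus strand: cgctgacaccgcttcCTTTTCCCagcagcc
Rps18, chr20:4933730-4933759, plus strand: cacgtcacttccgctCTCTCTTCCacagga
Rps27, chr2:177964592-177964621, minus strand: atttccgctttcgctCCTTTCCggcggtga
Rps3a, chr2:173827028-173827057, minus strand: gagttgtacttccgcCCTTTTggctctcag

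In most other members such a run was near the annotated start, but no match began on the start base. In some, among them Rps2, Rps23 and Rps24, the run covered the start base, and in others it lay beside it. Anywhere in the 30 bases around the start, the same run was found in 20 of 26 members (76.9%), in 77.8% of the large subunit genes and in 37.5% of all promoters. The windows of Rps2, Rps23 and Rps24 show long runs of this kind, while those of Rps12, Rps15al4, Rps16, Rps19, Rps19bp1 and Rps27l hold none. Of the windows without a run, those of Rps12, Rps19bp1 and Rps27l are shown. A match is a description of these letters and not of a working motif, and the lack of one says only that the letters are not in this window.
Rps2, chr10:14251833-14251862, plus strand: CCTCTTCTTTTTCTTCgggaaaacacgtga
Rps23, chr2:23814502-23814531, plus strand: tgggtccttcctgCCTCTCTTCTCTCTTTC
Rps24, chr16:96502-96531, plus strand: tgagcggtCCTCTTTTCCTCCTTTacagct
Rps12, chr1:23500060-23500089, plus strand: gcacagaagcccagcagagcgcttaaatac
Rps19bp1, chr7:113693009-113693038, minus strand: cagcgtgtgggcggggcttggcagcatgtc
Rps27l, chr8:76443643-76443672, plus strand: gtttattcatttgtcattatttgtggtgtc

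The libraries were those of red cells almost throughout. Total counts per library ranged from 51838917 to 68076324, and hemoglobin genes took 95.0% to 96.4% of them, which left 2344910 to 3216776 counts for all other genes. Of the markers of blood cells, those of red cells (10 of 10 genes found) summed to 2410 to 3097 CPM (counts scaled to the library size, here with edgeR's TMM factors) and those of platelets (10 of 10) to 298 to 397 CPM, while the lists for neutrophils, monocytes, T cells, B cells and NK cells reached at most 12.4, 16.3, 1.88, 4.42 and 1.05 CPM. Summed red cell markers were 2527 to 2740 CPM in Control, 2410 to 2703 in DNAgel and 2801 to 3097 in GS, and the ribosomal genes summed to 1272 to 1482, 1307 to 1705 and 1413 to 1569 CPM. None of the markers found was at 0 in all libraries. Of the 36 markers tested, 0 passed in any comparison with edgeR or limma, and DESeq2 called 1, Bpgm, for DNAgel against GS. The edgeR unadjusted p was under 0.05 for 2, 4 and 3 markers in the 3 comparisons below (all genes: 9.44%, 3.79% and 8.85%). Of the white cell lists, only 3 neutrophil, 4 monocyte, 3 T cell, 4 B cell and 3 NK cell markers were tested. CPM did not overlap between the groups for 2, 3 and 4 of 10 red cell markers (all genes: 14.7%, 10.2% and 17.2%). The same held for 2, 0 and 1 of 4 monocyte markers and for 0 of 9 platelet markers. The part of the cell mixture in the ribosomal values was not tested. In such bulk samples fewer cells of a type and less RNA per cell cannot be told apart. In these lists the markers with the largest statistics, DNAgel compared with GS, were Bpgm and Alas2, Clec1b and Ppbp, S100a8 and S100a9, Csf1r and Fcgr1a, Cd3d and Cd3g, Cd79b and Ms4a1, and Klrd1 and Nkg7, in the same order.

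The members were present in every group at similar summed levels. FPKM, the count scaled by transcript length and library total, was used for levels, since it is meant to let genes be compared with each other. Such a comparison depends on the length assigned to each row, which was not checked. The 41 rows together held 0.422% ± 0.00829 (SD, n = 3) of all FPKM in Control, 0.445% ± 0.0157 in DNAgel and 0.403% ± 0.0160 in GS. The single libraries lay at 0.416%, 0.431% and 0.419% in Control, at 0.447%, 0.429% and 0.460% in DNAgel and at 0.391%, 0.397% and 0.421% in GS, so that DNAgel and GS did not overlap and Control overlapped with both. With hemoglobin genes out of the denominator this order was not kept: the shares were 4.21% ± 0.560, 4.61% ± 0.667 and 4.85% ± 0.444 of FPKM, and the libraries of all 3 groups overlapped. Hemoglobin genes held 88.4% to 90.9% of FPKM in Control, 89.1% to 91.3% in DNAgel and 90.9% to 92.4% in GS, the GS libraries reaching highest.

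**Figure D1:**
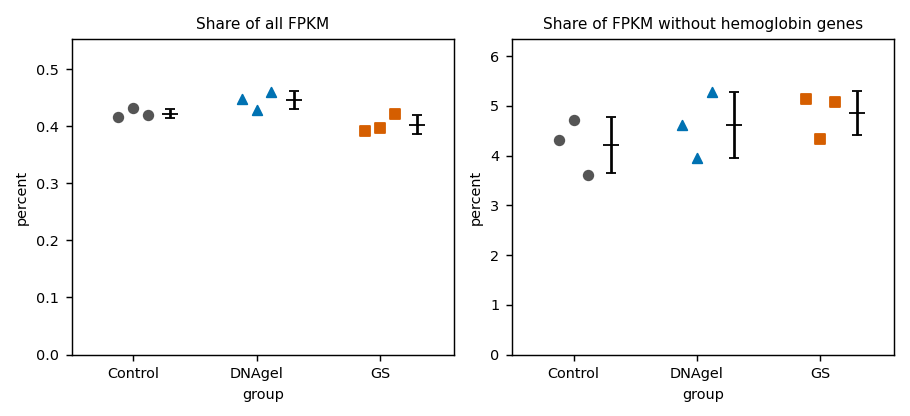
Share of FPKM (percent, vertical axis from 0) held by the 41 rows in each library of Control, DNAgel and GS, on the left of all FPKM and on the right without hemoglobin genes; bars beside the points give the mean and SD of 3 libraries. On the left the DNAgel libraries (0.429% to 0.460%) sit above the GS libraries (0.391% to 0.421%), and on the right all groups overlap.

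FPKM levels of single members spanned a wide range although the proteins are needed in equal numbers. This range and its order carry the assigned lengths and differ from those of the counts. Rps14 had the most counts of the members, with a mean of 13082 at 68.5 FPKM. Rps15 had a mean count of 3500 at 103 FPKM. The highest was Rps29 on chromosome 6, a zinc-binding protein of the head of the subunit, at 234, 228 and 226 FPKM in Control, 256, 223 and 226 in DNAgel and 188, 187 and 216 in GS. All GS libraries lay below all Control and all DNAgel libraries on this scale, and on the TMM scale, where the comparisons were tested, the groups overlapped. The next was Rps27a-ps1, which the table describes as a pseudogene of Rps27a, at 196, 189 and 203 FPKM in Control, 245, 201 and 257 in DNAgel and 189, 187 and 194 in GS. Rps27a itself, which encodes S27a fused to ubiquitin, had a mean of 49.5 FPKM over the 9 libraries, and by counts the pseudogene entry took 64.2% and Rps27a 25.8% of what the table assigns to that protein.

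Rps15, a protein of the head near the decoding center, followed at 101, 103 and 94.4 FPKM in Control, 102, 103 and 107 in DNAgel and 94.2, 108 and 112 in GS. Rps20 on chromosome 5, also of the head, had 96.2, 108 and 91.0 FPKM in Control, 119, 99.6 and 125 in DNAgel and 84.2, 89.6 and 111 in GS. In FPKM both overlapped between all groups. Rps14, which lines the mRNA exit and whose loss is tied to anemia in a human myelodysplastic syndrome, had 71.8, 73.3 and 62.9 FPKM in Control, 86.5, 66.4 and 77.0 in DNAgel and 53.2, 53.4 and 71.9 in GS, where GS 1 and GS 2 lay below all other libraries. Rps4x on chromosome X, which in humans has a counterpart on the Y chromosome, had 55.8, 58.8 and 72.4 FPKM in Control, 58.2, 65.5 and 75.4 in DNAgel and 65.5, 65.6 and 60.9 in GS. These 6 highest members held 53.6% of the summed FPKM of the 41 rows, and 3 of them, Rps14, Rps29 on chromosome 6 and Rps27a-ps1, held 33.9% of their counts.

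By mean FPKM, 4 members were at 100 or more, 24 between 10 and 100, 11 between 1 and 10, and 2 below 1. In the order of mean FPKM, 38 of 40 neighbours overlapped in their ranges over the 9 libraries. The order therefore holds only for members far apart, and only on the FPKM scale. The exceptions were the step from Rps27a-ps1 to Rps15 and the step from Rps20 on chromosome 9 to Rps27l.

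**Figure D2:**
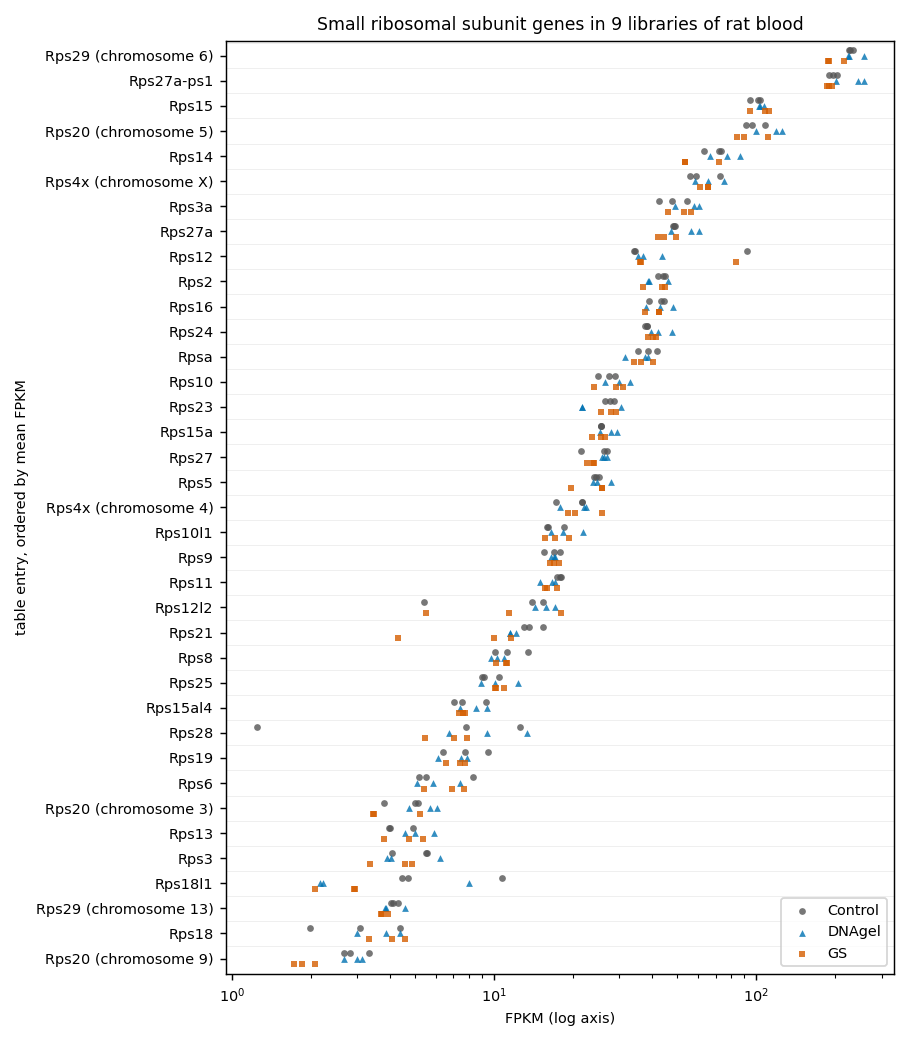
FPKM (log axis) of 37 of the 39 rows with a mean of at least 1 FPKM, 1 line per row in order of the mean, with 1 point per library colored and shaped by group. Most rows hold their 9 points close together, and Rps12, Rps12l2, Rps21, Rps28 and Rps18l1 have single libraries that stand apart.

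Among members with known roles outside their place in the subunit, Rpsa, the laminin receptor homolog on the solvent side, had 35.5, 38.5 and 41.9 FPKM in Control, 31.6, 37.7 and 38.7 in DNAgel and 36.2, 40.5 and 34.0 in GS. Rps6, the substrate of the S6 kinases, was much lower at 5.51, 5.19 and 8.31 FPKM in Control, 5.10, 7.44 and 5.86 in DNAgel and 7.64, 6.90 and 5.38 in GS. Rps19, the gene most often mutated in human Diamond-Blackfan anemia, a failure of red cell formation, had 7.77, 6.36 and 9.47 FPKM in Control, 6.13, 7.88 and 7.48 in DNAgel and 7.73, 7.41 and 6.56 in GS. All groups overlapped for each of these genes. Rps24 and Rps10, which are also mutated in that anemia, had means of 40.4 and 28.3 FPKM.

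The lowest members were Rps27l, Rps19bp1 and the Rps20 row on chromosome 9. Rps27l, a paralog of Rps27 that p53 induces in human cells, had a mean of 0.0976 FPKM, with no count in Control 1, DNAgel 1 and GS 3 and at most 0.251 FPKM in GS 1, against 24.9 FPKM for Rps27. Rps19bp1 encodes a protein that binds Rps19 and is no part of the subunit. It had 8 counts in GS 1 and none in the other libraries. In every library 4 was the most frequent count above 0, though other low counts occur, so a count of 0 over a group was taken to allow up to 12 counts, 3 times that value, and no comparison of Rps19bp1 was possible. Together, 40 of the 41 rows passed the filter on low values (FPKM over 0.1 in at least 3 libraries) and Rps19bp1 did not.

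Rows that share a name differed in genomic span as well as in level. The span runs from the first to the last base of a row and need not be the transcript length that scales FPKM. Rps29 on chromosome 13, with a span of 333 bases, had a mean of 4.02 FPKM against 221 on chromosome 6. Rps4x on chromosome 4, of 929 bases, had 20.9 against 64.2 on chromosome X. Rps20 on chromosomes 3 and 9, of 482 and 527 bases, had 4.73 and 2.59 against 103 FPKM on chromosome 5. A span under 1000 bases was found for 10 members, among them these and Rps27a-ps1, Rps10l1, Rps12l2, Rps15al4 and Rps18l1.

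Across the 9 libraries most members varied little. Of the 39 rows with a mean of at least 1 FPKM, the median coefficient of variation (CV) was 11.4%, against 17.1% over all 940 genes above the same floor. The members and these genes were not matched for level, and the median of the mean FPKM over the 41 rows was 17.6. The steadiest was Rps9, with a CV of 4.14%. In 31 rows the CV was under 20%, and in 4 it was over 30%, namely Rps12 (47.7%), Rps12l2 (35.9%), Rps28 (45.8%) and Rps18l1 (67.4%).

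Each of the 4 uneven rows stood beside an entry named or described as the same protein that was lowest or near its lowest in the libraries where the row was highest. Besides the members, 67 further entries of the table are described as a small subunit protein or a copy of one, for 27 proteins. How the authors' counting divided reads that match several such entries is not given in the sources used here, so the value of a single entry is uncertain. Rps12, a protein of the beak of the head, had 34.2 and 34.4 FPKM in Control 1 and 3 but 92.2 in Control 2, then 36.9, 35.4 and 43.5 in DNAgel, and 83.8 in GS 1 with 35.9 and 36.2 in GS 2 and 3. Rps12l2, described as S12-like 2, had 15.3, 5.42 and 13.9 FPKM in Control, 15.7, 14.3 and 17.1 in DNAgel and 5.49, 18.0 and 11.4 in GS. The same libraries, Control 2 and GS 1, were the highest for Rps12 and the lowest for Rps12l2.

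An S12-like entry on chromosome 17, ENSRNOG00000062272 (bases 15242592 to 15243105 in the table, which states no build), behaved like Rps12l2, with 3256, 1348 and 3087 counts in Control, 3475, 2708 and 3942 in DNAgel and 1342, 2845 and 2850 in GS. Another on chromosome 1, ENSRNOG00000062534, had 388, 81 and 384 counts in Control, 424, 281 and 514 in DNAgel and 135, 525 and 352 in GS. Rps12 took 61.6% and 61.1% of all counts described as S12 in Control 2 and GS 1, and 22.8% to 24.8% in the other libraries. Added together, the 10 entries of S12 came to 93.2 to 137 CPM, with a CV of 12.5% where Rps12 alone had 51.1% in CPM.

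Rps28, which lies near the mRNA exit, showed the same with an entry described as S28 pseudogene 1 on chromosome 16 (ENSRNOG00000049442). Rps28 had 302, 30 and 183 counts in Control, 166, 177 and 325 in DNAgel and 187, 165 and 117 in GS. The pseudogene entry had 57, 331 and 204 counts in Control, 298, 174 and 30 in DNAgel and 94, 195 and 277 in GS. By counts, Control 2 was lowest for Rps28 and highest for the pseudogene entry, and DNAgel 3 the reverse. Their sum with 1 more S28 entry ranged from 4.90 to 7.66 CPM, with a CV of 15.2% against 46.2% for Rps28 and 58.3% for the pseudogene entry.

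Rps18, a protein of the head that contacts the large subunit, and Rps18l1 on chromosome 10 formed another such pair. Rps18 had 432, 665 and 921 counts in Control, 860, 511 and 959 in DNAgel and 716, 865 and 883 in GS, and Rps18l1 had 494, 215 and 198, then 105, 288 and 101, then 134, 93 and 119. Control 1 and DNAgel 2 were lowest for Rps18 and highest for Rps18l1. All 5 entries of S18 together had a CV of 9.74%, against 25.1% for Rps18. The table describes its Rps18 row, with a span of 6548 bases, as a beta-1,3-galactosyltransferase, so counts of an overlapping gene may be among them. Rps21 had 235 counts in GS 3 and 584 to 940 in the other libraries, and its copies ENSRNOG00000032807 and ENSRNOG00000033916 had 277 and 329 counts in GS 3. All S21 entries together had 841 counts in GS 3 and 885 to 1408 in the other libraries. Here the sum (CV 16.5%) did not have a smaller SD than Rps21 alone (CV 26.1%).

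**Figure D3:**
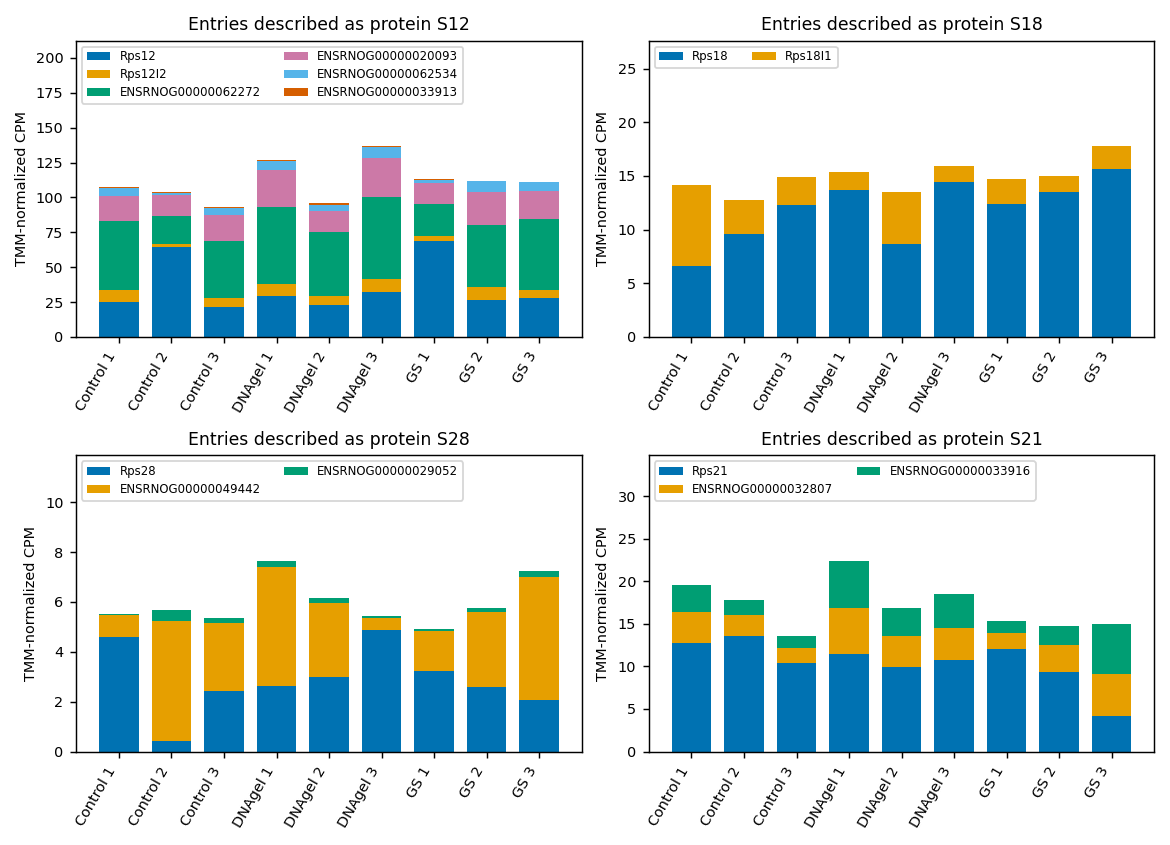
TMM-normalized CPM (vertical axis from 0) per library of all entries with a mean count of at least 10 described as protein S12, S18, S28 or S21, stacked by entry. In S12, S18 and S28 the blue part (Rps12, Rps18, Rps28) changes between libraries while the whole bar changes less, as in Control 2 and GS 1 for S12.

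For most other proteins the sum and its most varying entry were close. The table has entries for 32 small subunit proteins, 29 of them with a member, and 22 of these have at least 2 entries with a mean count of at least 10. The SD of the sum was below that of the most varying entry for 7 of the 22, clearly so for S18 (2.03 times), S28 (1.86 times) and S12 (1.3 times) and by at most 1.08 times for the others. By CV the sum was below that entry for 19 of the 22, with a median CV of 12.4% for the sums and 12.9% for the entries. Rps7 and Rps26 are not among the rows analysed here. The only entry described as S7, ENSRNOG00000027694, ranged from 154 counts in DNAgel 3 to 649 in Control 3, with a CV of 38.0%. No other S7 entry stood beside it. An S26-like entry on chromosome 14 (ENSRNOG00000068623) had no count in DNAgel 2 and 52 to 107 counts in the other libraries.

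The first comparison, DNAgel against GS, asked how blood responded to the DNA hydrogel relative to the gelatin sponge. No member passed an adjusted p of 0.05 with edgeR's quasi-likelihood test and Benjamini-Hochberg adjustment, where 0.814% of all 3561 genes tested did (29 genes, all higher in DNAgel). DESeq2 and limma called none either. At an unadjusted p under 0.05 there were 2 members, against 9.44% of all genes. The median log2 fold change of the 40 members was -0.0039, with 19 above 0, against a median of 0.035 and 53% above 0 over all genes. The CPM values of the groups did not overlap for 3 members, Rps2, Rps23 and Rps20 on chromosome 9 (all genes: 14.7%). The 95% interval of the log2 fold change lay within 1 on either side of 0 for 34 of the 40.

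The largest statistic was that of Rps23, a protein of the decoding center. It had 22.3, 19.3 and 18.2 CPM in Control, 18.0, 20.6 and 16.7 in DNAgel and 22.1, 22.6 and 22.3 in GS. Every GS library was above every DNAgel library, with a log2 fold change of -0.28 (SE 0.12) and an adjusted p of 0.489 (edgeR). Rps20 on chromosome 9 had 1.63, 1.81 and 1.3 CPM in Control, 1.91, 1.51 and 1.52 in DNAgel and 1.10, 1.19 and 1.10 in GS, so GS lay below both other groups. Its log2 fold change was 0.54 (SE 0.25) for DNAgel against GS (edgeR, adjusted p = 0.509) and -0.48 (SE 0.24) for GS against Control (adjusted p = 0.609), and its main row on chromosome 5 overlapped in both. Rps14 had 180.0, 161 and 225 CPM in GS and 280.1, 175 and 233 in DNAgel, which overlapped, with a log2 fold change of 0.28 (SE 0.19, edgeR adjusted p = 0.735). The value of Rps14 was 0.11 without DNAgel replicate 1, 0.18 without GS replicate 2, and 0.43 without DNAgel replicate 2 or GS replicate 3. That of Rps23 was -0.15 with library totals alone and -0.18 with limma at a pseudocount of 0.1.

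The fold change of Rps12 turned on 1 library. Between DNAgel and GS its log2 fold change was -0.55 (SE 0.54, edgeR adjusted p = 0.849), and without GS replicate 1 it was 0.046. With all S12 entries added before the fit it was 0.10 (SE 0.14, edgeR adjusted p = 0.911). Added up in this way, an alternative chosen after the data were seen, 0 of the 32 proteins passed in this comparison (edgeR, 2 at an unadjusted p under 0.05). Of all 3504 rows in that fit, 26 passed. S21 had a log2 fold change of 0.36 (SE 0.15, edgeR adjusted p = 0.441).

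In DNAgel against Control no member passed (edgeR, DESeq2 and limma), and 0% of all genes did with edgeR. At an unadjusted p under 0.05 there was 1 member, against 3.79% of all genes. The median log2 fold change of the members was 0.16 with 30 of 40 above 0, against a median of -0.015 and 48.9% above 0 over all genes. The largest statistic was that of Rps27a-ps1, with 127, 115 and 111 CPM in Control and 168, 112 and 165 in DNAgel. DNAgel 2 lay among the Control libraries, and the log2 fold change was 0.34 (SE 0.16, edgeR adjusted p = 0.994). Rps3a, which lies on the solvent side near the mRNA exit, had 54.1, 45.5 and 52.2 CPM in Control and 59.2, 59.8 and 65.4 in DNAgel. It was the only member without overlap here (all genes: 10.2%), and its log2 fold change was 0.28 (SE 0.13, edgeR adjusted p = 0.994). Rps13, which takes part in a bridge to the large subunit, had 9.03, 6.86 and 6.22 CPM in Control and 8.95, 9.44 and 9.11 in DNAgel, with a log2 fold change of 0.32 (SE 0.17, edgeR adjusted p = 0.994), 0.49 without Control replicate 1 and 0.21 without Control replicate 3.

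The level of the members differed between libraries of 1 group by as much as between groups. The median deviation of the 40 members from their own mean over the 9 libraries (log2 of CPM + 0.1) was 0.12 in DNAgel 1 and 0.084 in DNAgel 3 but -0.12 in DNAgel 2, the library with the lowest total count. It was 0.032, -0.082 and -0.16 in Control and 0.13, 0.038 and 0.018 in GS. Without DNAgel replicate 2 the median log2 fold change for DNAgel against Control was 0.24, and without DNAgel replicate 1 it was 0.081. The interval of the log2 fold change lay within 1 on either side of 0 for 35 of the 40 members.

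In GS against Control no member passed with edgeR, DESeq2 or limma, where 0.646% of all genes did with edgeR (23 genes, 22 of them lower in GS). At an unadjusted p under 0.05 there were 3 members, against 8.85% of all genes. The median log2 fold change of the members was 0.12 with 33 of 40 above 0, against a median of -0.043 and 46.3% above 0 over all genes. This direction rests on the scaling. With library totals alone, where the median of all genes was -0.23, the members' median was -0.057, and it was -0.031 with limma on FPKM, so that the members' median lay above that of all genes on each of these scales but not above 0. This comparison shares its samples with the other ones, and the same Control libraries stand in both comparisons with Control.

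The groups did not overlap in CPM for 8 members (all genes: 17.2%), of which Rps15, Rps4x on chromosome X, Rps24, Rps25 and Rps18 were among those higher in GS and Rps18l1 and Rps20 on chromosome 9 were lower. Rps18 and Rps18l1 were among the 3 members with the largest statistics. Rps18 had 6.60, 9.63 and 12.3 CPM in Control, 13.7, 8.65 and 14.4 in DNAgel and 12.4, 13.5 and 15.7 in GS, with a log2 fold change of 0.54 (SE 0.23, edgeR adjusted p = 0.486). Rps18l1 had 7.54, 3.11 and 2.64 CPM in Control, 1.67, 4.87 and 1.52 in DNAgel and 2.31, 1.45 and 2.11 in GS, with a log2 fold change of -1.18 (SE 0.52, edgeR adjusted p = 0.559). Without Control replicate 1 the value of Rps18 was 0.35 and that of Rps18l1 -0.55, and with library totals alone that of Rps18 was 0.34. With the entries of S18 added together the log2 fold change was 0.18 (SE 0.13, edgeR adjusted p = 0.767). The interval lay within 1 on either side of 0 for 32 of the 40 members.

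**Figure D4:**
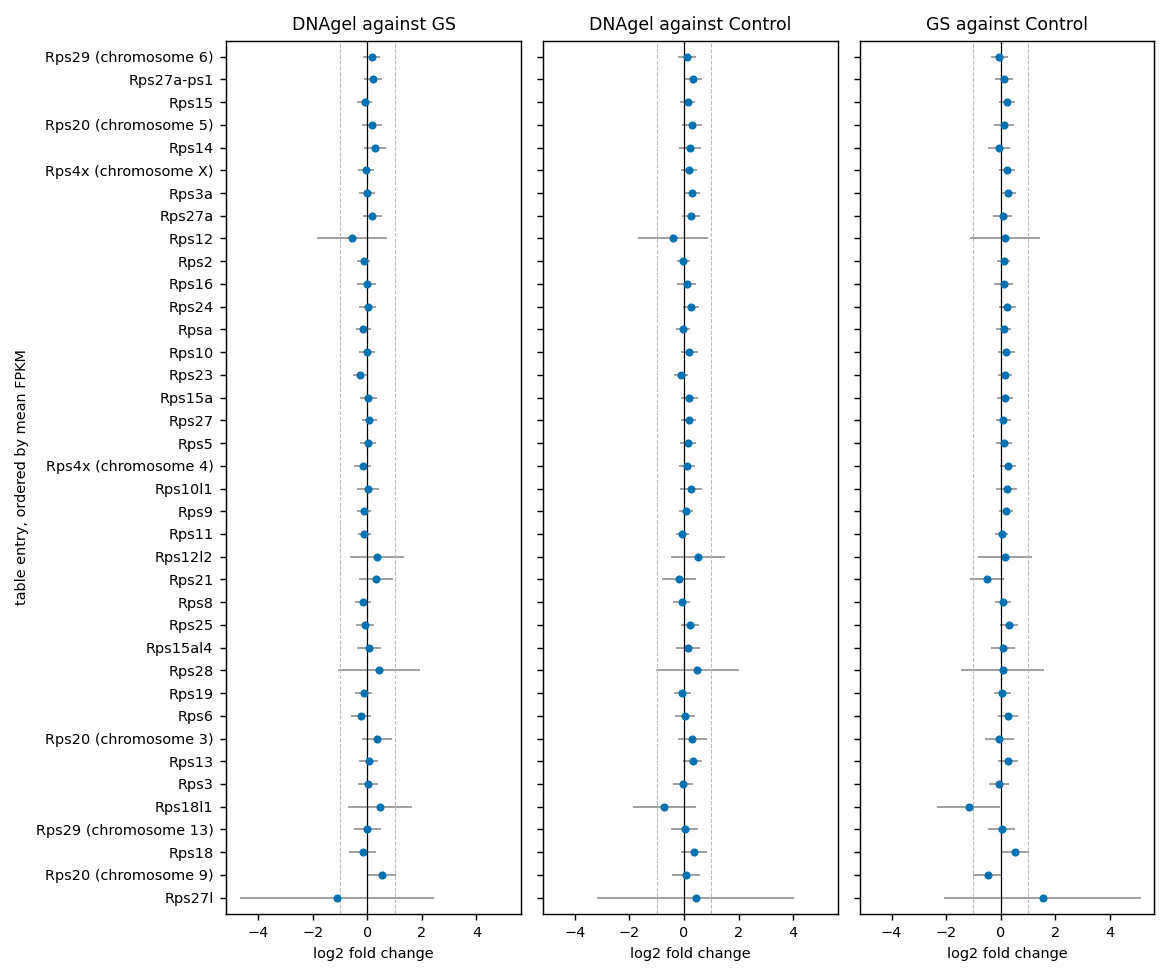
Log2 fold change (horizontal axis, point) with its 95% interval (line) from edgeR for 38 of the 40 rows past the filter, in order of mean FPKM, in 1 panel per comparison; dashed lines mark 1 on either side of 0. No row passed an adjusted p of 0.05 in any panel, and the widest intervals are those of Rps27l, Rps28, Rps12, Rps18l1 and Rps12l2.

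The other parts of the ribosome and its makers were compared from lists. Fau and Rack1 also encode subunit proteins, though their names do not start with Rps. Fau encodes S30 in a fusion with a ubiquitin-like protein, and Rack1 a scaffold for signaling kinases on the head. Fau had a mean of 105 FPKM and Rack1 of 17.3 FPKM, which lie within the range of the members, and their log2 fold changes for DNAgel against GS were -0.076 (SE 0.15) and 0.035 (SE 0.12), neither past the threshold (edgeR, adjusted p = 0.947 and 0.977). Of the 67 rows named Rpl for the large subunit, 63 were tested and 0 passed in any comparison with edgeR, DESeq2 or limma. The edgeR unadjusted p was under 0.05 for 6, 4 and 8 of the 63 (all genes: 9.44%, 3.79% and 8.85%). In the order of the comparisons above their median log2 fold changes were -0.0063, 0.12 and 0.074, beside -0.0039, 0.16 and 0.12 for the small subunit. Rpl9 on chromosome 3 (-1.02, SE 0.30, edgeR adjusted p = 0.213) and Rplp2 on chromosome 1 (0.44, SE 0.15, adjusted p = 0.305) had the largest statistics for DNAgel against GS.

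The mRNAs of factors that assemble the small subunit were almost absent beside the high levels of the mRNAs of its proteins. Of 38 factors listed, 33 names were found on 34 rows, and their summed level was 1.37 to 3.47 CPM per library where the members reached 1272 to 1705 CPM. Only 7 rows passed the filter, and 0 of them passed in any comparison with edgeR, DESeq2 or limma. The edgeR unadjusted p was under 0.05 for 1 of the 7 in each (all genes: 9.44%, 3.79% and 8.85%). The highest by FPKM was Wdr46, with a mean of 0.196 FPKM. Imp3, a protein of the early assembly particle, had 10, 4 and 12 counts in Control, 0 in each DNAgel library and 5, 0 and 10 in GS, and its adjusted p for DNAgel against GS was 0.419 (edgeR). Nop56, a core protein of the particles that methylate rRNA, had 14, 21 and 15 counts in Control, 9, 14 and 15 in DNAgel and 5, 1 and 0 in GS (edgeR, adjusted p = 0.602).

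Of 7 genes listed for a link to TOP mRNAs or to growth signals, 6 were found and 4 tested. In any comparison 0 passed with edgeR (0 also at an unadjusted p under 0.05), DESeq2 or limma. They summed to 3.07 to 5.64 CPM. Rps6kb2, a kinase of Rps6, had a log2 fold change of 0.54 (SE 0.32, edgeR adjusted p = 0.700) and Eif4ebp1, an inhibitor of cap binding, of -0.35 (SE 0.33, adjusted p = 0.837) for DNAgel against GS. Mtor, the kinase above both, had a mean of 0.0103 FPKM and did not pass the filter.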

How the data were processed

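RNA of rat whole blood was sequenced in 9 libraries after 2 rounds of poly(A) purification, by a strand-marking protocol with unique molecular identifiers. The tools in the submitters' processing notes are HISAT2 2.0.4 and cutadapt 1.9, StringTie 1.3.4d and UMI-tools, edgeR and DESeq2, whose settings the sources used here do not give. The notes list a build of the mouse although all identifiers are of the rat, so table coordinates carry no build. The authors deposited, per gene and library, an estimated count that is whole and unscaled. They also deposited FPKM, which the authors scaled by transcript length and library total.

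The counts (whole as deposited, so no rounding changed them) were tested with edgeR 4.0.16 in R 4.3.3 (TMM, quasi-likelihood with robust dispersion, 9 libraries in 1 fit, no block) for 3561 genes (at least 3 libraries above 0.1 FPKM), with Benjamini-Hochberg adjustment and 0.05 as the threshold. The fit was tested on simulated data, with changes larger than nearly all differences of the members. That test cannot show how often differences as small as these would be found. Standard errors come from dividing the log2 fold change by the square root of F. Alternatives were DESeq2 1.42.0, limma 3.58.1 on log2(FPKM + 0.1, 0.01 or 1), other filters and scalings, counts divided by 4, a replicate block, only the groups compared, each library left out, and entries summed by protein (chosen after the data were seen). A count of 0 over a group was taken to allow 12 counts, 3 times the most frequent count above 0 (4, which is not a fixed unit), and this covers counting error only.

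Named with values were the 6 highest and 3 lowest members by mean FPKM, the 3 largest statistics of each comparison, rows sharing a name or number, Rpsa, Rps6, Rps14, Rps19 and Rps19bp1, and of other lists the 2 largest statistics for DNAgel against GS. Rps12, Rps12l2, Rps28, Rps21, Rps9, Rps10, Rps24, Wdr46, Mtor, the S7 entry and the S26-like entry were named after their values were seen or for their role. The results of 1 gene are not reported here; its rows stay in the counts and sums. The members and lists were chosen with earlier results of these data known. Promoters are from RefSeq (GRCr8), from 250 bases before to 50 after the start.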

Additional observations from a re-analysis of the deposited data

How the results depend on the processing

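The count of members past the threshold was 0 in each of the 3 comparisons under every alternative run. For DNAgel against GS the members' median log2 fold change was 0.10 with limma at a pseudocount of 0.1, 0.10 at 0.01 and 0.11 with library totals alone (all genes: 0.11, 0.13 and 0.15). For GS against Control it was -0.031, -0.031 and -0.030 with limma at pseudocounts of 0.1, 0.01 and 1, and -0.057 with library totals alone (all genes: -0.17, -0.23, -0.055 and -0.23). Why the scale moved them was not tested. With entries summed by protein, the median over the 32 proteins was -0.078 for DNAgel against GS, with 12 above 0. It was 0.13 for DNAgel against Control, with 23 above 0, and 0.13 for GS against Control, with 28 above 0. Apart from leaving out libraries, the alternatives ranged from -0.078 to 0.11, from 0.071 to 0.17 and from -0.057 to 0.15 in these comparisons. Leaving out each library in turn gave medians of -0.044 to 0.014 for DNAgel against GS, 0.081 to 0.24 for DNAgel against Control and 0.095 to 0.20 for GS against Control, and shares of FPKM of 0.417% to 0.425% in Control, 0.438% to 0.453% in DNAgel and 0.394% to 0.409% in GS. Rps12 had -0.55 for DNAgel against GS, -0.79 to 0.046 with each library left out, and 0.046 without GS replicate 1, which had most of its S12 counts on Rps12.

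The summed share for Control, DNAgel and GS was 4.21%, 4.61% and 4.85% of FPKM without hemoglobin genes, 0.147%, 0.156% and 0.140% of counts, 3.32%, 3.71% and 3.61% of counts without hemoglobin genes, and 0.459%, 0.482% and 0.439% of FPKM with Fau and Rack1 and without Rps19bp1. A fit with the replicate number as a block called 0 members, with medians of 0.0010, 0.16 and 0.13, and 14, 0 and 9 of all genes. Same-numbered libraries correlated at 0.130, 0.0692 and 0.0260 between Control and GS and at most 0.00362 otherwise. Libraries of different groups and different numbers correlated at -0.133 to 0.149. The numbers were not taken as pairs, though these correlations cannot show whether same-numbered libraries share an animal. Depth limits the low rows: 2344910 to 3216776 counts a library were not of hemoglobin, and rows such as Rps27l and Rps20 on chromosome 9 rest on few of them.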
